A study of Mus musculus with 16 samples.

Results

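The 10 genes described here encode the enzymes and core partners that write, copy and erase DNA methylation (Dnmt1, Dnmt3a, Dnmt3b, Uhrf1, Tet1, Tet2 and Tet3) and the core of Polycomb repressive complex 2 (PRC2; Ezh2, Eed and Suz12). They were taken by name from 26089 mouse genes with a curated RefSeq transcript on the 20 chromosomes of the peak lists. CD8+ T cells from spleens of OT1 mice, whose transgenic T cell receptor recognises an ovalbumin peptide, were activated for 48 h with anti-CD3 and anti-CD28 and then expanded for 3 days in IL-2. They received 0.5 μM GSK2879552 (GSK), which irreversibly inhibits LSD1, a histone demethylase, or vehicle (Veh) throughout. Both groups shared the mouse strain, the stimulation and the IL-2. Chromatin immunoprecipitation and sequencing (ChIP-seq) used 6 antibodies, which recognised RNA polymerase II (Pol II), LSD1, H3K27ac and mono-, di- and trimethylated H3K4 (H3K4me1, H3K4me2 and H3K4me3). Each antibody and treatment had 1 library, so there was no replicate error, no test and no p-value for any difference between treatments, and every value is that of a single library. The files are peak lists with no read numbers, so depth cannot be read from them and no interval rests on it. Each peak carries a fold, the ratio of ChIP signal to local background, and a −log10 p from the peak caller, which grades a peak against its background and not one treatment against the other.

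The lists held between 2751 peaks for GSK H3K27ac and 40272 for GSK H3K4me1, and they differed in length between treatments, most in proportion for H3K27ac (7410 in Veh) and H3K4me2 (15219 in Veh and 9437 in GSK). By the read pairs that the study states per library, the deeper library of a pair also had the longer list for each antibody except Pol II, and Veh H3K27ac was sequenced far more deeply than GSK H3K27ac. Whether the lists were called on all reads or on equal numbers of reads is not clear from the sources used here. The part of depth and list length in the results below was not tested. As a check of the cell label, all 6 annotated CD8 T cell markers (Cd3e, Cd3g, Cd8a, Cd8b1, Lck and Cd2) had an H3K4me3 promoter peak in both treatments. Among 12 markers of B cells, myeloid cells, epithelium and erythroid cells, the same 3 (Ebf1, Cd14 and Epcam) had one in both.

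DNA methylation at CpG sites is copied after each round of replication by DNMT1, which UHRF1 brings to hemimethylated DNA. DNMT3A and DNMT3B add methylation to sites that had none, and the TET enzymes oxidise methylcytosine as a step towards its removal. PRC2 silences genes by methylating histone H3 at lysine 27: EZH2 is its catalytic subunit, EED reads the finished mark and SUZ12 holds the complex together. Dividing T cells need the maintenance machinery, and both DNMT3A and PRC2 are known to silence memory-associated genes in effector CD8+ T cells. LSD1 itself removes methyl groups from H3K4me1 and H3K4me2, while H3K4me3 and H3K27ac mark active promoters.

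The gene bodies, extended by 20 kb on each side, spanned 1008 kb and were overlapped by 333 peaks over the 12 lists. Of these, 115 lay within 1 kb of a transcription start site (TSS) of the gene itself, 72 lay within 1 kb of a TSS of a neighbouring gene, and 146 lay over 1 kb from every curated TSS and are called distal. Dnmt3a had the most distal peaks, 48 of its 68, in a window of 147.5 kb. Ezh2 had the fewest peaks in all, 15.

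H3K4me3 marked the promoter of every member in both treatments, against 50.2% of all genes in Veh and 51.3% in GSK. No member gained or lost the mark (over all genes 0.333% had it in Veh alone and 1.48% in GSK alone). The peak-caller evidence for H3K4me3 was highest at the maintenance pair, with a −log10 p of 151 in Veh and 138 in GSK at Dnmt1 and of 142 and 122 at Uhrf1. The PRC2 genes and Dnmt3b followed, between 90.01 for Eed and 105.3 for Ezh2 in Veh and between 79.4 for Dnmt3b and 93.7 for Suz12 in GSK. Tet2 and Tet3 were next, at 72.7 and 70.9 in Veh and at 69.3 and 58.4 in GSK. Dnmt3a, at 28.5 and 40.7, and Tet1, at 15.1 and 13.8, were lowest in both libraries. The fold did not follow this order, since Tet3 (6.83 in Veh) and Dnmt3b (7.03) exceeded Dnmt1 (5.97). Peak width set Tet2, Ezh2, Eed and Suz12 apart: their H3K4me3 peaks were 2.02 to 2.18 kb wide in Veh and 1.99 to 2.14 kb wide in GSK, while the other 6 members had peaks of 1.11 to 1.65 kb in Veh. Here and below, a gene with several peaks at its starts is given by the peak with the highest fold. For Dnmt3a this was the peak at its inner start, and a weaker H3K4me3 peak at the outer starts was 2084 bases wide.

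At curated starts, H3K27ac divided the 10 genes into equal groups, and the division was the same in both treatments. Dnmt1, Uhrf1, Ezh2, Eed and Suz12 had an H3K27ac promoter peak in Veh and in GSK, whereas Dnmt3a, Dnmt3b and the 3 Tet genes had none in either. Thus the copying enzyme, its recruiter and the 3 PRC2 subunits were on one side, and the enzymes that add methylation de novo or oxidise methylcytosine were on the other. Over all genes 20.6% had the mark in Veh and 8.61% in GSK. Among the 13084 genes with a Veh H3K4me3 promoter peak the shares were 40.7% and 17.1%. The 5 marked members therefore all kept a peak in a list that was much shorter. Over all genes 12.3% had the mark in Veh alone, which was 3208 of the 5367 with it in Veh, and 0.333% in GSK alone. Eed had the highest fold, 5.93 in Veh and 5.88 in GSK. Uhrf1 had 5.68 and 4.65, Dnmt1 4.61 and 4.93, Suz12 4.42 and 5.24, and Ezh2 4.25 and 4.54. With a −log10 q of at least 5 in both lists, Dnmt1 and Uhrf1 kept the peak in Veh alone. With predicted transcripts included, 6 members had the mark in each treatment. A predicted Dnmt3a start lies at an intronic site, described below, that had H3K27ac in both.

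Pol II followed the same division, with Tet3 in addition. The 5 genes with H3K27ac and Tet3 had a Pol II promoter peak in both treatments, and Dnmt3b, Tet1 and Tet2 had none in either. Dnmt3a had one in Veh alone, at fold 3.29 and −log10 p 4.26. So 7 of 10 members carried Pol II in Veh and 6 in GSK, against 29.4% and 25% of all genes and 57.6% and 48.9% of genes with H3K4me3. A Pol II peak in Veh alone was found at 7.35% of all genes, and in GSK alone at 2.95%. Eed again had the highest fold, 8.83 in Veh and 7.67 in GSK, followed in Veh by Suz12 (7.36 and 6.53) and Dnmt1 (7.25 and 4.03). Ezh2 had almost the same value in both, 5.91 and 5.85. Uhrf1 had 5.84 and 4.32. Tet3 had 5.15 and 3.43 at its outer start and 4.54 and 3.90 at its inner start. The Dnmt3a difference was lost with a −log10 q of at least 2 in both lists, and also when predicted transcripts were included. H3K27ac and Pol II in both treatments together were found at 1864 of the 13084 genes with H3K4me3 (14.2%) and at 5 members, and H3K4me3 with no H3K27ac in either was found at 7668 (58.6%) and at the other 5.

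**Figure D1:**
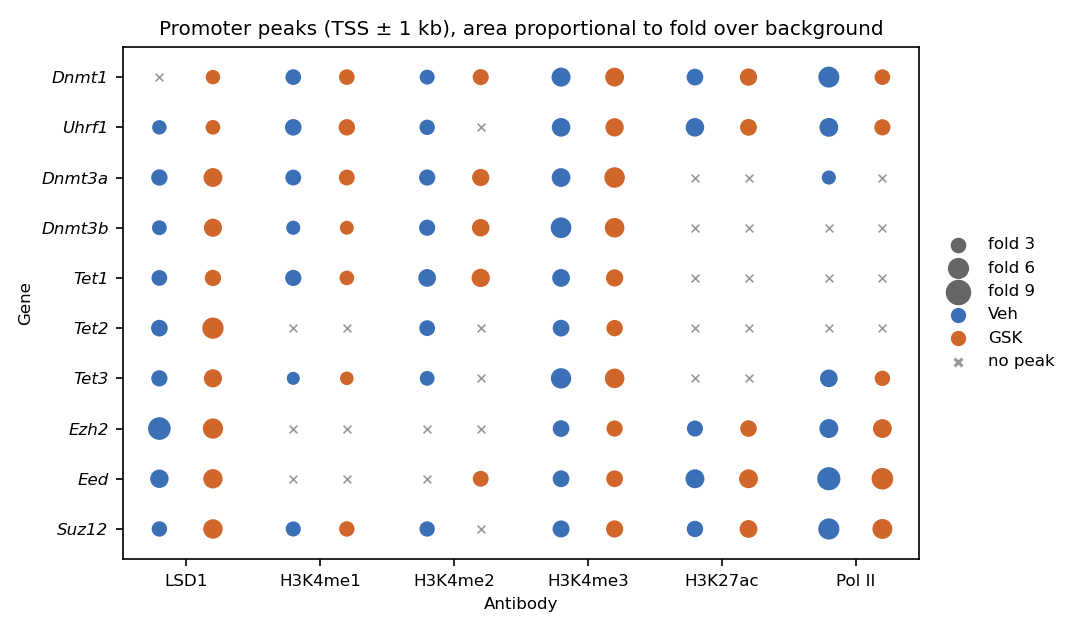
Promoter peaks of the 10 genes, within 1 kb of a TSS, for the 6 antibodies (x axis), with Veh in blue on the left and GSK in orange on the right of each pair. Point area is proportional to fold over background and a grey cross means no peak; H3K4me3 is complete, and H3K27ac is present at Dnmt1, Uhrf1, Ezh2, Eed and Suz12 in both libraries.

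The upstream sequences of the genes with H3K27ac and Pol II are shown for Uhrf1 and the PRC2 genes, beside that of Tet2, which had neither. Each line gives the 250 bases before the start, read in the direction of transcription from the RefSeq promoter entries (GRCm38.p6), with capitals where a searched motif matched. For Dnmt1 no sequence is shown, because the bases before its innermost start are transcribed from another start.
Uhrf1, chr17:56303087-56303336, plus strand: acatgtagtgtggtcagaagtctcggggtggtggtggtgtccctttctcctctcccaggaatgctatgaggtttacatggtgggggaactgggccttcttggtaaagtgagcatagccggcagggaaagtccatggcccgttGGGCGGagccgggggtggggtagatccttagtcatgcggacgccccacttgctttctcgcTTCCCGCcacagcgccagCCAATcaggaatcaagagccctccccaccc
Ezh2, chr6:47595031-47595280, minus strand: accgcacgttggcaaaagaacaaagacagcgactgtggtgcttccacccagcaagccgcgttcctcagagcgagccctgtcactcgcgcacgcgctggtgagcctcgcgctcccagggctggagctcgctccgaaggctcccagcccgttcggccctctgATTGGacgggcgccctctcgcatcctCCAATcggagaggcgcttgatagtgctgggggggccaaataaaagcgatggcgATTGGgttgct
Eed, chr7:89980977-89981226, minus strand: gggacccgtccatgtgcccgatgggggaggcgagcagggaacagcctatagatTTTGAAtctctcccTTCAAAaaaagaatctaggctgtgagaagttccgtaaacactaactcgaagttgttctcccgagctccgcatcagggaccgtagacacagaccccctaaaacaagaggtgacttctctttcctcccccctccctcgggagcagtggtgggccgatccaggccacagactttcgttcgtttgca
Suz12, chr11:79992856-79993105, plus strand: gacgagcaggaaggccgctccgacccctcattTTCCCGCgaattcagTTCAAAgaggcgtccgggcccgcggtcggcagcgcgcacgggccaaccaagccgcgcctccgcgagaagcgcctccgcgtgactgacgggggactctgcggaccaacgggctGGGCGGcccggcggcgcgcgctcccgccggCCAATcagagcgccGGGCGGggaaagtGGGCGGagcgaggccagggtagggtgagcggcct
Tet2, chr3:133544391-133544640, minus strand: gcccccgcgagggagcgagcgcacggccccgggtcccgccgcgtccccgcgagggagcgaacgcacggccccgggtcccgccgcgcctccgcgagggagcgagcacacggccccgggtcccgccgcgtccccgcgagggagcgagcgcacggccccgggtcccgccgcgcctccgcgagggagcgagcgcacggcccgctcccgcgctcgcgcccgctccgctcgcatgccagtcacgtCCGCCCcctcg

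All 10 genes matched the RefSeq promoter table, with 15 entries of 300 bases each, from 250 before to 50 after a start. The outer Tet3 start had no entry and was not searched, so values for Tet3 are those of its inner start. The letters searched, on both strands, were CCAAT (read by NF-Y), GGGCGG (Sp and KLF factors), TTCCCGC (E2F), TTTGAA (the cell cycle homology region, CHR), CCGGAAG (ETS), GCATGCGC (NRF1), CACGTG (the E-box) and TGTGGTT (RUNX). CCAAT was found in an entry of all 5 genes with H3K27ac and of 1 of the other 5, Tet3. It is a common motif, held by 37.4% of the 32851 promoters, and in these cells its share was close between genes with H3K27ac and Pol II in both treatments (44.6%) and genes with H3K4me3 and no H3K27ac (42.4%). Ezh2 held 3 copies upstream of its start, and in Eed the copy lay downstream of it. TTCCCGC, held by 4.6% of promoters, was found at Uhrf1 and Suz12, and TTTGAA (17.9%) at Dnmt1, Dnmt3b, Eed and Suz12. At Dnmt1 the only TTTGAA match lay before its outermost start, which had no H3K4me3, H3K27ac or Pol II peak. GGGCGG (35.7%) was found at 8 members, with Ezh2 and Eed the exceptions. GCATGCGC (2.71%) was found at Dnmt1, where 2 overlapping matches lay just after each of its 2 inner starts, and CACGTG (7.15%) at Dnmt3a. CCGGAAG (8.86%) and TGTGGTT (5.27%) matched no member entry. The shares of promoters count single entries of all genes, whereas members were counted by gene and all had H3K4me3. In the classes of genes compared for NF-Y, in that order, the Sp and KLF motif was held by 69.7% and 71.7%. The shares were 13.1% and 9.08% for E2F, 18% and 12% for CHR and 27.9% and 16% for ETS. For NRF1 they were 7.37% and 5.11%, for the E-box 11.9% and 11.8% and for RUNX 4.31% and 4.23%. Whether members differ from these shares was not tested. CpG content was above the median of all promoters (an observed to expected ratio of 0.384) at every entry except the outermost Dnmt1 start, at 0.101, and Tet2 had the highest, 1.17. The Tet2 sequence is also a tandem array, in which the 15 bases acggccccgggtccc recur 4 times at a spacing of 42 bases.

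LSD1 itself was found at nearly all of these promoters. It had a promoter peak at 9 members in Veh and at all 10 in GSK, against 36.5% and 41.8% of all genes and 69.2% and 78.6% of genes with H3K4me3. Within the window that chose these peaks, the summits lay from −596 to 691 bases relative to a start. Ezh2 had the highest fold in Veh, 8.41 (the 96.7th percentile of the list), and 6.73 in GSK. The Ezh2 start faces that of the noncoding gene F830010H11Rik, an exon of which overlaps the sequence shown, so these peaks belong to both. Tet2 had the highest in GSK, 7.48 (the 93.9th percentile), after 4.58 in Veh. Suz12 went from 3.92 in Veh to 6.25 in GSK, Dnmt3b from 3.61 to 5.43 and Dnmt3a from 4.41 to 5.88. Tet3 had 4.34 and 5.44, Eed 5.60 and 6.18, and Tet1 4.10 and 4.41. Uhrf1 had the lowest fold among the 9, 3.44 and 3.53. The fold was thus higher in GSK at 8 of 9 members with a peak in both, as it was at the median gene. At Suz12 and Tet3 the highest peaks of the treatments were not the same peak. The Suz12 peak in GSK overlapped a second Veh peak, downstream of the start, with a fold of 3.81. At the inner Tet3 start the LSD1 fold was 4.34 in Veh and 3.90 in GSK, and at the outer start it was 4.09 and 5.44.

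Dnmt1 was the one member whose LSD1 call differed, with a peak in GSK alone at fold 3.44 and −log10 p 4.51, the 15.02th percentile of its list by −log10 p. Over all genes 9.78% had LSD1 in GSK alone and 4.46% in Veh alone. The difference at Dnmt1 was lost with a −log10 q of at least 2, and also with a window of 2 kb, which took in an LSD1 peak found in both treatments upstream of its outermost start.

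H3K4me1 and H3K4me2, the substrates of LSD1, were less complete. H3K4me1 had a promoter peak at the same 7 members in both treatments, against 30.4% of all genes in Veh and 36.9% in GSK and 49.3% and 59.6% of genes with H3K4me3. Tet2, Ezh2 and Eed had none. No member changed its H3K4me1 call (3.43% of all genes had a peak in Veh alone and 9.89% in GSK alone), although Dnmt3a did with a 500 bp window and Tet1 and Suz12 did with a −log10 q of at least 5. The 3 genes without it were among the 4 whose H3K4me3 peak spanned at least 2 kb in Veh. Of all 1593 genes with so wide a peak 24% had H3K4me1 within 1 kb in Veh, against 52.8% of the 11491 genes with a narrower one. The weaker H3K4me3 peak at the outer Dnmt3a starts was also that wide in Veh, and H3K4me1 lay within 1 kb of those starts in both treatments. At Tet2, Ezh2 and Eed, H3K4me1 lay further out. Its nearest edge was 1.02 kb upstream of the Tet2 start in Veh and 1.33 kb in GSK, just outside the window. Upstream of Ezh2 the mark lay 2.87 kb away in Veh and 2.82 kb in GSK. At Eed it began 1.74 kb downstream of the start in Veh, and in GSK it lay 1.16 kb upstream and 1.85 kb downstream. Among the 7 genes with the mark Uhrf1 had the highest fold, 4.54 in Veh and 4.45 in GSK, and Tet3 the lowest, 2.81 and 3.04.

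H3K4me2 was the mark whose calls differed most. It was present at 8 members in Veh and 5 in GSK, against 39.2% and 28.3% of all genes and 73.3% and 53% of genes with H3K4me3. Dnmt1, Dnmt3a, Dnmt3b and Tet1 had it in both treatments and Ezh2 in neither. Tet2, Tet3, Suz12 and Uhrf1 had it in Veh alone (12.8% of all genes, or 3351 of the 10218 with it in Veh), and Eed in GSK alone (1.94%). The peaks found in Veh alone had folds of 3.61 at Tet3, 3.89 at Suz12, 3.92 at Uhrf1 and 4.09 at Tet2. By fold all lay in the lower part of the list (at most its 25.4th percentile). By −log10 p they stood higher at Tet3 (40.6th percentile), Uhrf1 (53.5th) and Tet2 (54.9th), but not at Suz12 (13.5th). The Eed peak in GSK had a fold of 4.15, the 11.9th percentile of its list by fold and the 4.48th by −log10 p. Tet1 had the highest H3K4me2 fold in both libraries, 5.19 and 5.51. The difference at Tet2, Tet3 and Uhrf1 was present under each of the 6 alternative settings, whereas the others changed: with lists cut to equal length Suz12 no longer differed and Dnmt1 did, since its peak in Veh was among those removed.

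**Figure D2:**
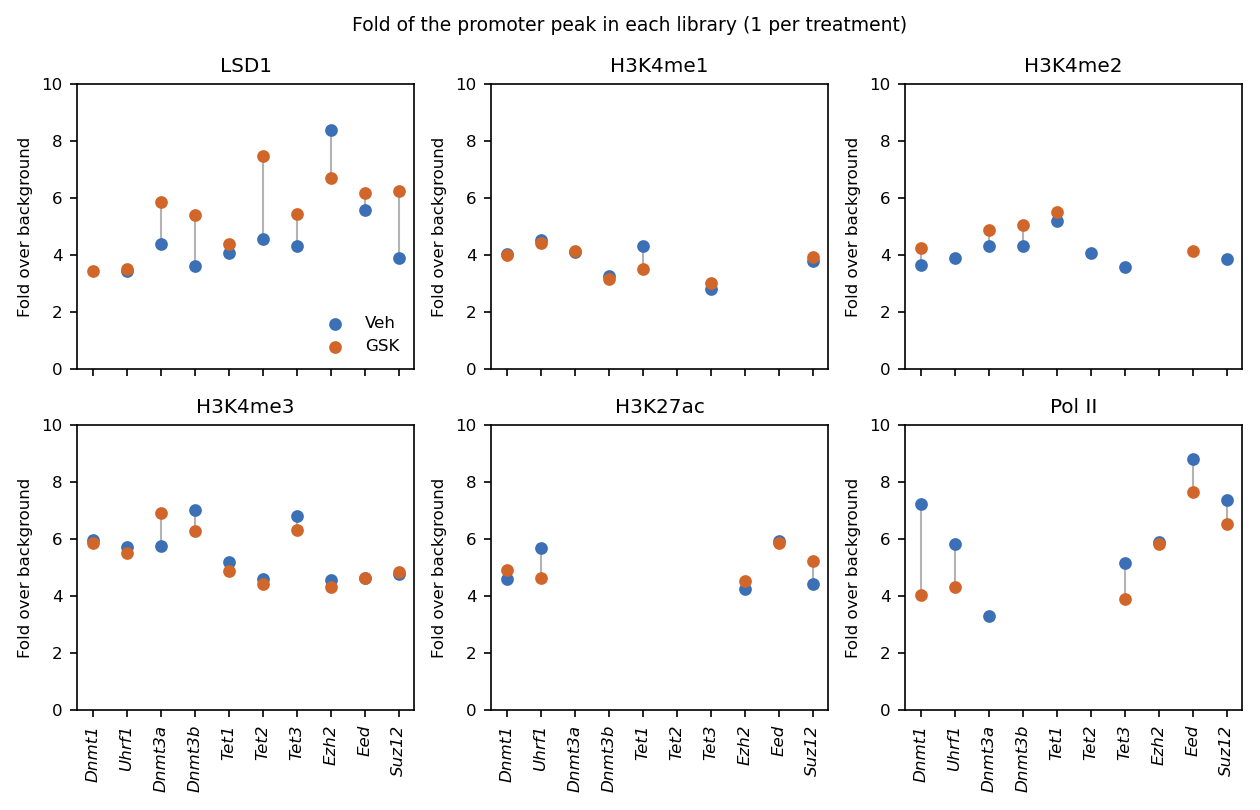
Fold over background (y axis) of the promoter peak of each gene (x axis) in the Veh (blue) and GSK (orange) library of each antibody, joined where both exist. LSD1 at Tet2 (4.58 and 7.48) and Suz12 (3.92 and 6.25) and Pol II at Dnmt1 (7.25 and 4.03) have the widest gaps.

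Dnmt1, Uhrf1, Dnmt3a and Tet3 have several curated start, and the peaks were not shared evenly between them. Dnmt1 has 3 starts. The 2 inner ones (chr9:20952979 and chr9:20952623) shared an H3K4me3 peak, H3K27ac and Pol II in both treatments. The outermost start, chr9:20959888, had H3K4me1 alone (fold 3.65 in Veh and 3.40 in GSK), and was the one start of the 16 without H3K4me3. At Uhrf1 LSD1 was centred on the inner start, chr17:56304313, 7 bases from it in Veh. H3K4me3, H3K27ac and Pol II lay within 1 kb of both Uhrf1 starts. Tet3 had LSD1, H3K4me3 and Pol II at both starts and H3K4me2 at both in Veh alone, so its loss of the H3K4me2 call was seen at each.

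Dnmt3a differed between its starts. The 2 outer starts, which give the long protein, shared an LSD1 peak 1.79 kb wide in Veh and 1.31 kb wide in GSK, with no Pol II. The inner start, chr12:3891744, which gives the shorter DNMT3A2 protein, had LSD1 (fold 3.20) and Pol II (3.29) in Veh and neither in GSK. H3K4me3 stood higher at the inner start in both libraries, at a fold of 5.76 in Veh and 6.94 in GSK, than at the outer starts, at 3.52 and 3.76. H3K4me2 was also kept there, with 4.34 and 4.89. Both lost peaks were weak, with −log10 p of 4.50 for LSD1 and 4.26 for Pol II.

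For members with a promoter peak in both treatments, the log2 of GSK fold over Veh fold was centred on the median of all genes with both peaks, since the scale of a fold moves with the library. In 4 of the 41 pairs, at Tet3 (LSD1, H3K4me1 and Pol II) and Suz12 (LSD1), the Veh and GSK peaks did not overlap, so the ratio compares different peaks of the gene. None of the members passed 1.5-fold for any antibody. Over all genes 8.9% passed it for LSD1, 7.85% for Pol II, 0.556% for H3K27ac, 0.51% for H3K4me2, 0.454% for H3K4me1 and 0.2% for H3K4me3. The median of all genes before centring was 0.20 for LSD1, 0.24 for H3K27ac and −0.30 for Pol II, and it was −0.04 for H3K4me1, 0.05 for H3K4me2 and 0.02 for H3K4me3. After centring, LSD1 ranged from −0.52 at Ezh2 (the 6.77th percentile of all genes) to 0.51 at Tet2 (the 93.4th), with a median of 0.13 over 9 members. Suz12 (0.48) and Dnmt3b (0.39) lay near Tet2. The PRC2 subunits Ezh2 and Suz12 therefore stood at opposite ends for LSD1, with Eed at −0.05 between them.

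H3K4me3 was below the median gene at 8 of 10 members, but by small amounts, with a median of −0.07 and a lowest value of −0.18 at Dnmt3b. Suz12 was just above the median gene, at 0.007. Dnmt3a was highest, at 0.25, the 96th percentile of all genes, and this came from its inner start. H3K27ac had a median of −0.14 over 5 members and was lowest at Uhrf1 (−0.52, at percentile 0.741 of all genes). Uncentred, that median was 0.09, so its sign depended on the centring. Pol II was above the median gene at 3 of 6 members and below it at 3, from −0.54 at Dnmt1 (the 5.64th percentile) to 0.29 at Ezh2. H3K4me2 was above the median gene at all 4 members with both peaks, with a median of 0.15, and H3K4me1 had a median of 0.03 over 7 members, with Tet1 lowest at −0.26.

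**Figure D3:**
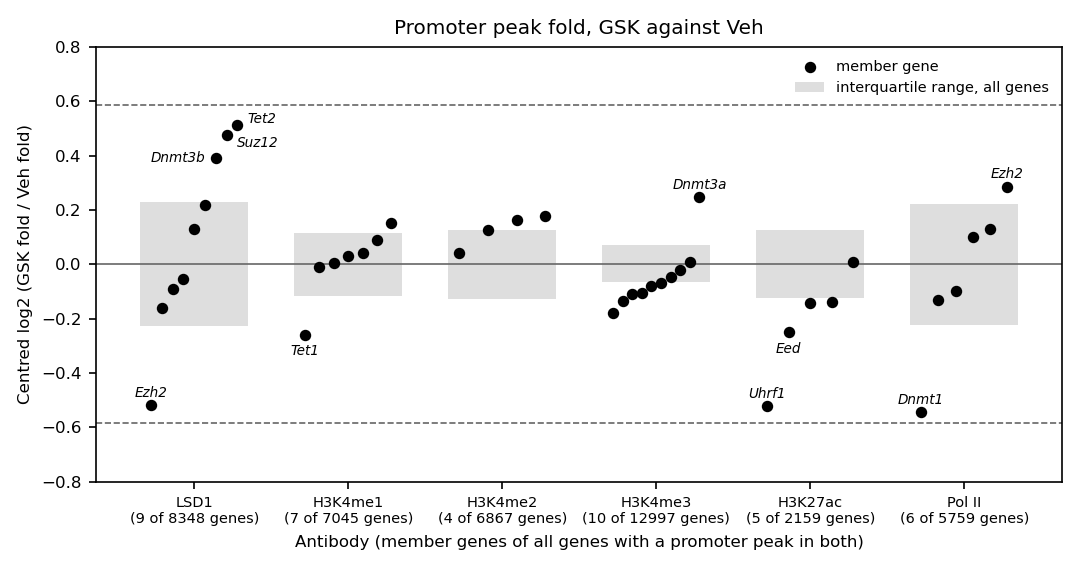
Log2 of GSK fold over Veh fold at the promoter, less the median of all genes (y axis), for each antibody (x axis). Points are member genes, grey boxes the interquartile range of all genes with a peak in both lists and dashed lines 1.5-fold; no point passes the lines, and Ezh2 (LSD1), Uhrf1 (H3K27ac) and Dnmt1 (Pol II) lie closest to the lower one.

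Away from promoters the loci were very unequal. Merging overlapping distal peaks of all lists gave 60 sites, of which 11 lay at Dnmt3a, 11 at Tet2, 8 at Tet3 and 7 at Tet1, and 2 to 5 at each of the other genes. H3K4me1 was the usual mark: it was present in both treatments at 33 sites, in GSK alone at 13 and in Veh alone at 5. LSD1 was present at 13 sites, 6 of them at Dnmt3a. Tet2, Tet3, Eed and Uhrf1 had no distal LSD1 peak in either treatment. Tet2 thus combined the highest LSD1 fold at its promoter in GSK with 10 sites of H3K4me1, 5 of them in both treatments, and no LSD1 along the gene.

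Dnmt3a carried 6 LSD1 peaks inside its introns, and each was overlapped by an LSD1 peak in GSK. Their density, 4.07 per 100 kb in either treatment, stood at the 95.2th percentile of genes with H3K4me3 in Veh. In order from the first start, the summits in Veh lay at 16.8, 28, 39.4, 48.9, 64.3 and 90.2 kb. The one with the highest −log10 p lay furthest in, in intron 10 (chr12:3897023-3897419), with a fold of 8.003 in Veh and 6.48 in GSK and −log10 p of 19.9 and 12.4. It also had the highest LSD1 fold at Dnmt3a in both libraries, above the promoter. Next by −log10 p in Veh were the peaks in intron 2 (chr12:3846028-3846585), with a fold of 5.77 and then 4.17, and in intron 1 (chr12:3823535-3824016), with 5.76 and then 5.39. The fold was lower in GSK at 5 of the 6 and higher at the one in intron 4 (3.20 in Veh and 4.43 in GSK). An H3K4me1 peak overlapped the LSD1 peak at all 6 sites in GSK and at 5 in Veh. At the intron 4 site the nearest Veh H3K4me1 peak ended at chr12:3870681, before the LSD1 peak began.

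At 2 of the Dnmt3a sites all 6 antibodies had a peak in at least 1 treatment. That in intron 1, at 28 kb, had H3K4me1, H3K4me2, H3K4me3 (fold 4.68 in Veh and 4.59 in GSK) and H3K27ac (3.47 and 4.66) in both treatments, and Pol II in GSK alone (3.603). A predicted RefSeq transcript, outside the curated set used here, starts within it at chr12:3834695, and another, at chr12:3824521, starts near the intron 1 peak at 16.8 kb. That in intron 3, at 48.9 kb, had H3K4me3 (4.59 and 4.22) and Pol II (4.33 and 3.75) in both treatments and H3K27ac in Veh alone (3.62), and no annotated start of Dnmt3a lay within 1 kb of it. These 2 sites were the places along Dnmt3a with H3K27ac, since its curated promoters had none.

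The sequence under 3 of these intronic LSD1 peaks is given as 201 bases on the plus strand of GRCm38.p6, with the summit base as the capital. The first is the intronic Dnmt3a peak with the highest −log10 p, the second the intron 3 site with all antibodies, and the last the Tet1 peak found in GSK alone.
Dnmt3a intron 10, chr12:3897118-3897318: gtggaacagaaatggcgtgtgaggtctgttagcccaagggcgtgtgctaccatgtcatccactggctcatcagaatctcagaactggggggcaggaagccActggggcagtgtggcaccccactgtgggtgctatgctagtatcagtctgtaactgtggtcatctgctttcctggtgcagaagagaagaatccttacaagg
Dnmt3a intron 3, chr12:3855744-3855944: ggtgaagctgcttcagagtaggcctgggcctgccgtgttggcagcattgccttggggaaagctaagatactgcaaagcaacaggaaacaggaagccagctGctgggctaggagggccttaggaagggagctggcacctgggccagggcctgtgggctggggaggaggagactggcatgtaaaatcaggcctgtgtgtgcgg
Tet1 intron 2, chr10:62865574-62865774: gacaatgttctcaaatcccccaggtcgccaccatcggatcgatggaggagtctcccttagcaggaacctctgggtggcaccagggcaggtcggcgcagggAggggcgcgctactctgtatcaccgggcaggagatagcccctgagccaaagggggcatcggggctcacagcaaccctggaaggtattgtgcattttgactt

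None of the 8 motifs above matched in these windows. The Dnmt3a windows were poor in CpG, with observed to expected ratios of 0.142 and 0.123, and the Tet1 window had 0.497. The end of the intron 10 window reaches into the next coding exon.

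Tet1 held the distal LSD1 peak with the highest fold among those found in 1 treatment alone. In GSK a peak in intron 2 (chr10:62865323-62865858), 21.6 kb from the start, reached fold 6.08 and −log10 p 12.5, above the Tet1 promoter in the same library (4.41 and 6.54). No Veh LSD1 peak overlapped it. A weak Veh peak (fold 2.58, −log10 p 3.10) lay 1.25 kb further along the gene. The site had H3K4me3 in both treatments, at a fold of 5.91 in Veh and 6.70 in GSK, higher than at the Tet1 promoter (5.19 and 4.90). H3K4me2 was there in Veh alone (4.73) and Pol II in GSK alone (2.94). One further Veh LSD1 peak, 11.7 kb upstream (fold 3.22), had no counterpart.

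**Figure D4:**
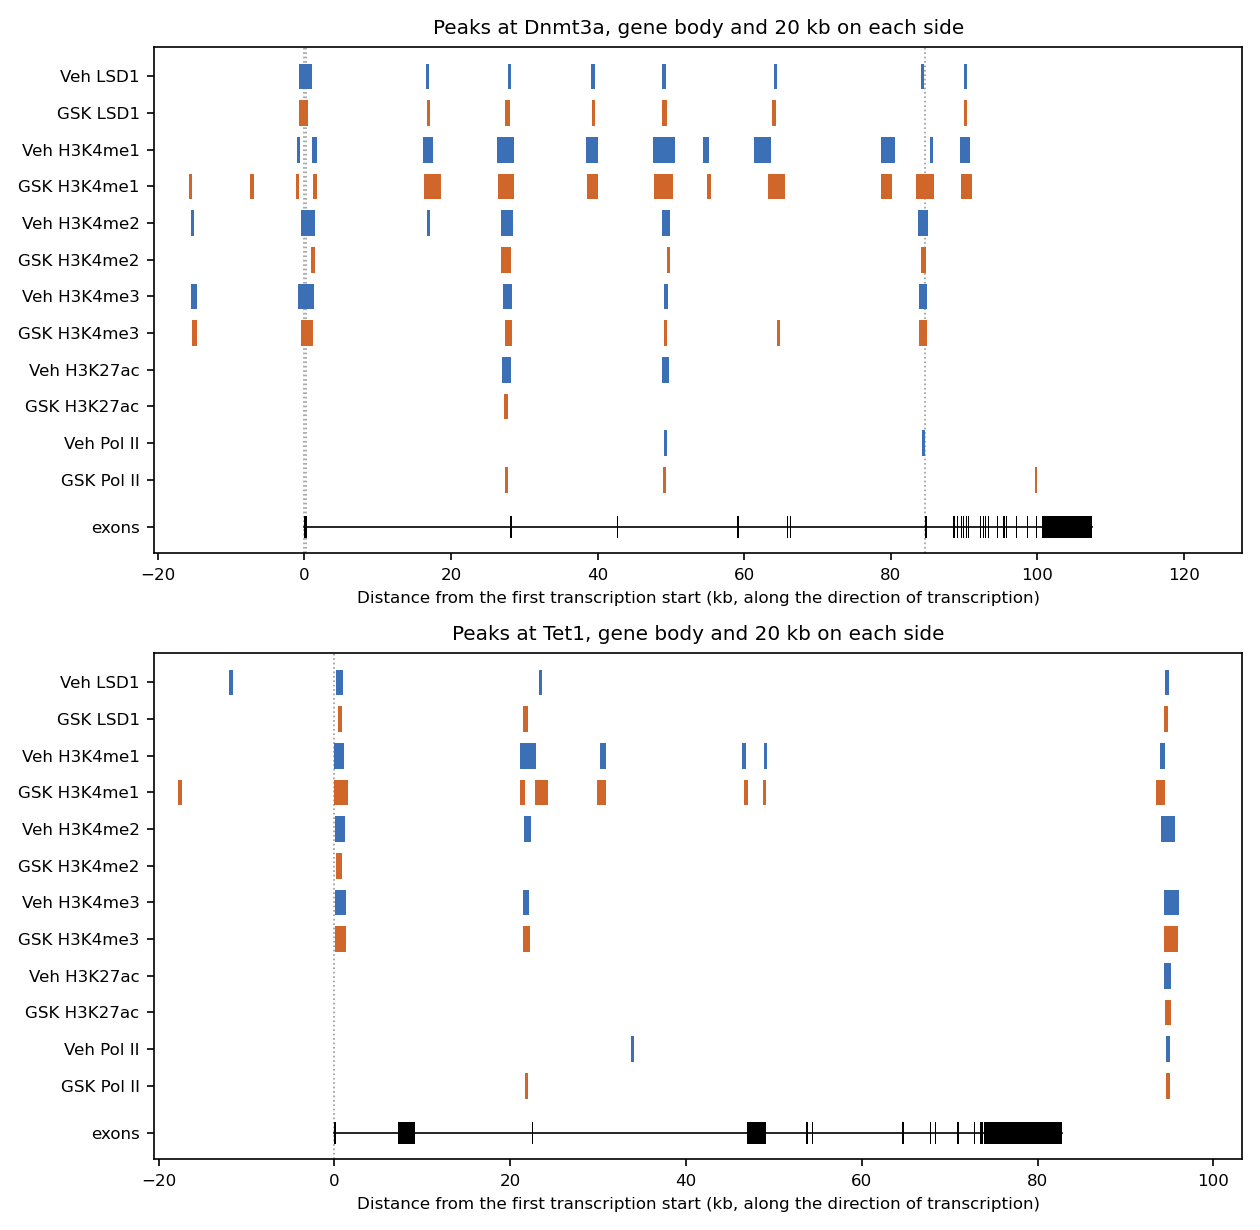
Peaks of the 12 lists along Dnmt3a (top) and Tet1 (bottom), as boxes at their position in kb from the first start along the direction of transcription, with Veh in blue, GSK in orange, curated exons in black and starts as dotted lines. Each of the 6 intronic LSD1 peaks of Dnmt3a in Veh has one in GSK, and the Tet1 peak at 21.6 kb is in GSK alone.

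The other loci had fewer distal LSD1 sites. At Suz12 a site 19 kb upstream (chr11:79973945-79974393) had LSD1 in both treatments, with a fold of 5.29 and 4.51, and H3K4me1, H3K4me2 and H3K4me3 in both. Its LSD1 fold was above that of the Suz12 promoter in Veh (3.92) and below it in GSK (6.25). Upstream of the outermost Dnmt1 start, chr9:20961291-20961818 had LSD1 with 4.97 in Veh and 4.17 in GSK. There H3K4me2 (4.42), H3K4me3 (3.96) and Pol II (3.35) were found in GSK alone. Ezh2 had one distal LSD1 peak, in intron 8 in Veh alone (fold 3.58). Dnmt3b had one in GSK alone, 10.2 kb upstream (4.67), and one in Veh alone downstream of the gene (4.02). At Tet3 an H3K4me3 site in intron 3, with H3K4me1 and H3K4me2, was present in both treatments without LSD1 (H3K4me3 fold 4.10 in Veh and 5.02 in GSK).

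Taking the distal peaks together, 8 of 12 Veh LSD1 peaks were overlapped in GSK (66.7%, Wilson 95% interval 39.1 to 86.2%), against 37.1% of 9309 distal LSD1 peaks within 20 kb of any gene. The interval covers counting error only. Of the 8 kept peaks, 6 lay at Dnmt3a, and without it 2 of 6 were kept (33.3%, 9.68 to 70.0%). Peak strength moved with this share, and its part in it was not tested. When the background peaks were ranked by −log10 p into 3 groups of near equal size, 11.5%, 34.5% and 65.4% were kept from the weakest to the strongest, and in these ranges the members had 1 of 4, 2 of 3 and 5 of 5 kept. H3K4me1 was kept at 34 of 38 distal peaks (89.5%, 75.9 to 95.8%), near the background of 87.6%. H3K4me3 was kept at 6 of 6 (background 92.2%), H3K4me2 at 4 of 7 (38.4%), and H3K27ac and Pol II at 1 of 3 each (28.1% and 18.0%). In the other direction, 35 of 47 distal H3K4me1 peaks of GSK were overlapped in Veh (74.5%, 60.5 to 84.7%), near the background of 75.6%. With peaks at neighbouring promoters included, 13 of 20 Veh LSD1 peaks were kept (65%, 43.3 to 81.9%).

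**Figure D5:**
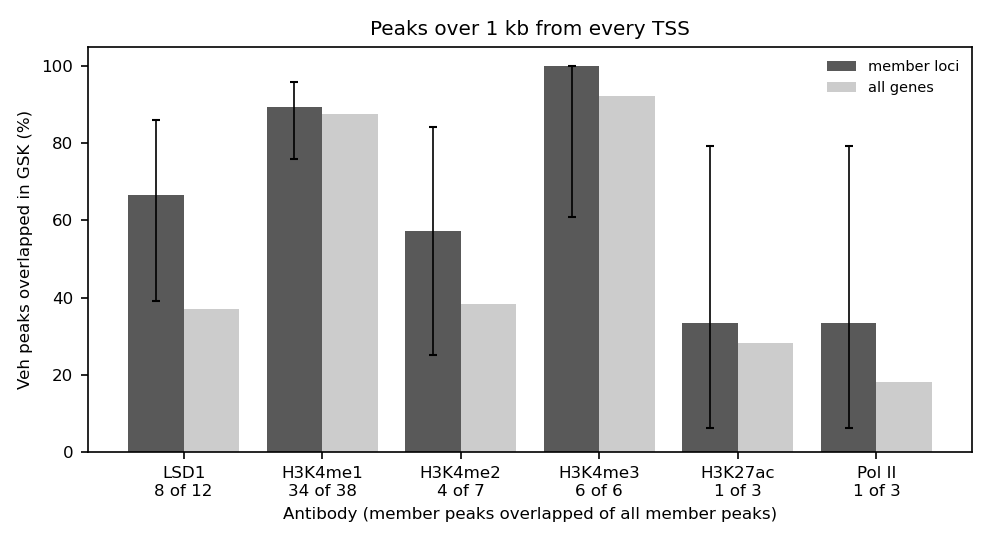
Share of Veh peaks over 1 kb from every TSS that a GSK peak overlaps (y axis, percent), for each antibody (x axis). Dark bars are the loci of the 10 genes with Wilson 95% intervals and light bars all genes; LSD1 stands at 66.7% against 37.1%, with 6 of its 8 kept peaks at Dnmt3a.

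A list of 46 other genes of the 2 systems (methyl-CpG readers, further PRC2 and PRC1 subunits and their opponents) was set beside the 10. H3K4me3 marked 43 of their promoters in Veh and 44 in GSK, the addition being Kdm6b, an H3K27 demethylase. The Kdm6b peak was weak, with a fold of 2.13, at percentile 0.438 of its list. LSD1 was at 32 in Veh and 36 in GSK (69.2% and 78.6% of all genes with Veh H3K4me3). It was in Veh alone at 5 and in GSK alone at 9 (4.46% and 9.78% of all genes). The strongest of these by −log10 p were, in GSK alone, Phc3 (13.1), a PRC1 subunit, Asxl2 (11.9), a partner of the deubiquitinase BAP1, the methyl-CpG reader Mbd2 (8.64) and the PRC1 subunits Pcgf3 (7.71) and Pcgf2 (7.11). Gadd45g, linked to active demethylation, had LSD1 in Veh alone (8.93). H3K4me1 was at 28 in either treatment, with 6 in Veh alone and 6 in GSK alone (3.43% and 9.89% of all genes). H3K4me2 was in Veh alone at 11 and in GSK alone at 1 (12.8% and 1.94% of all genes). H3K27ac was at 22 in Veh and 12 in GSK, with 11 in Veh alone. Over all genes, 3208 of the 5367 with H3K27ac in Veh had it in Veh alone. Of the 5 members with H3K27ac 0 did, although Dnmt1 and Uhrf1 did with a −log10 q of at least 5. Pol II was at 22 in Veh and 21 in GSK (57.6% and 48.9% of all genes with Veh H3K4me3). H3K27ac and Pol II in both treatments were found at 9 of the 46, among them Phf19, an accessory PRC2 subunit, Rbbp4, a PRC2 core partner, Tdg, which excises oxidised methylcytosine, and Uhrf2. H3K4me3 with no H3K27ac was found at 20, among them 5 Cbx genes and Ezh1. Over all genes with Veh H3K4me3, which 43 of the 46 had, these classes held 14.2% and 58.6%. Past 1.5-fold after centring were Rbbp7 (lower H3K4me1, of 22 genes with both peaks), Rbbp4 (higher H3K27ac, of 11) and Ring1 (higher Pol II, of 19). Over all genes the shares were 0.454%, 0.556% and 7.85%.

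Likeness was measured as the Euclidean distance over the 12 lists, each gene having the within-list percentile of its promoter fold, or 0 with no peak. Of all 26089 genes, Dnmt1 was the nearest to Uhrf1 (45.0), and Uhrf1 was the second nearest to Dnmt1 (45.0) after Cit (42.7). Among pairs of members this was the smallest distance, followed by Dnmt3a with Dnmt3b (66.4) and Ezh2 with Eed (67.0). The largest was between Tet1 and Eed (228). The nearest gene to Ezh2 was the divergent noncoding gene F830010H11Rik, at 0, because both read the same peaks, and the next was Kdm5a (18.2). Tet2 lay nearest to Rgs9bp (9.78) and Camk4 (22.2), Dnmt3a to Dnttip1 (20.51) and Smad1 (33.4), and Dnmt3b to Syngr2 (29.2) and Pdxp (34.9). Tet1 lay nearest to Bmpr1a (25.3) and Rybp (29.9), and Tet3 to Alg10b and Mir7648 (32.7 each). Eed lay nearest to Glyr1 and Ubn1 (22.1 each), Suz12 to Trim39 (39.6) and 2410002F23Rik (39.7), and Uhrf1 next to Rela (49.2).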

How the data were processed

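ChIP-seq was performed on 12 libraries and 4 inputs, and the inputs were not analysed here. The authors mapped unique reads to mm10 with Bowtie2, removed duplicates with Samtools and called peaks per library with MACS2 against input, at a stated p of 0.001. The LSD1 and Pol II lists begin there, whereas the histone lists begin near a −log10 q of 3.01. For each peak they deposited a fold (the ratio of ChIP to local background), a −log10 p-value and a −log10 q-value, as broad regions for the histone marks and narrow peaks with a summit for LSD1 and Pol II. The lists hold no read numbers, and the depths that the study states were not used in any value.

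Groups were taken from the labels. Peaks were assigned to curated RefSeq transcripts of GRCm38.p6 (1 kb around each start, 20 kb around each gene body, at least 1 base shared) with Python 3.11.15, pandas 2.3.3 and numpy 2.4.6, and the code was tested on simulated data. With 1 library per group no test was made. Wilson 95% intervals cover counting error only. The members and gene lists were chosen with earlier results of these data known. All 10 members were described, and other genes were named by rules of likeness (the 2 nearest) or of LSD1 in 1 treatment alone (the 6 with the highest −log10 p). Examples of H3K27ac and H3K4me3 classes were chosen after their values were seen. Windows, overlaps, thresholds and list lengths were varied.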

Additional observations from a re-analysis of the deposited data

How the results depend on the processing

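Of 103 alternative values for the 18 main results, 87 stayed within a preset tolerance (1.5 times for counts and folds, the Wilson interval for shares), 16 moved past it, and the cause was not tested unless fewer peaks were counted by construction. The number of members whose promoter call differed went from 1 to 0 for LSD1 with a 2 kb window or a stricter threshold (−log10 q of at least 2, or 5 for histone marks). For H3K4me1 it went from 0 to 1 with a 500 bp window (Dnmt3a) and to 2 with the stricter threshold (Tet1 and Suz12). For H3K4me2 it went from 5 to 3 under both (Tet2, Tet3 and Uhrf1 remained). The stricter threshold gave 2 for H3K27ac (Dnmt1 and Uhrf1, from 0) and 0 for Pol II (from 1), as did predicted transcripts for Pol II. The share of Veh peaks away from the gene's own start that were kept in GSK went for H3K4me1 from 90.5% to 75% with the stricter threshold and 71.4% where 50% of the peak had to be overlapped, for H3K4me2 from 64.3% to 33.3% with the stricter threshold, for H3K27ac from 42.9% to 100% (2 of 2) with lists of equal length, and for Pol II from 77.8% to 33.3% (1 of 3) with the gene body alone, over 2.5 kb from every start, or over 1 kb from every start. The last, and LSD1 without Dnmt3a, were chosen after seeing the data. The tolerance is wide for small numbers. Within it, the LSD1 share went from 65% to 45% where 50% of the peak had to be overlapped, and the H3K27ac share to 16.7% (1 of 6) with the stricter threshold. The uncentred median log2 ratio changed sign for H3K27ac (−0.14 to 0.09) and H3K4me1 (0.03 to −0.01), and was −0.30 for Pol II, which was near 0 when centred. The LSD1 median went from 0.13 to 0.46 with −log10 p in place of fold and 0.04 with a 2 kb window. No paired analysis was possible because each antibody and treatment had 1 library.

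Without replicates, a peak in 1 list alone says only that it passed the calling threshold there, and no difference between treatments was tested. List lengths differed between treatments, depth differed between libraries by the study's own account and is not in the lists, and a fold is scaled within its own library.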
